A study of Mus musculus with 30 samples.

Results

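The endoplasmic reticulum (ER) is where secreted and membrane proteins are folded, and 35 genes of its folding machinery and stress response were followed here in mouse microglia that lacked none, one or both copies of *Bin1*. A list of gene symbols set the membership. All 35 were found in the expression table, which holds 47643 genes, and all 35 passed the minimum level for testing (a mean of at least 0.1 FPKM), which left 16897 genes. They comprised 15 chaperones and folding enzymes, 6 sensors and transcription factors, 3 feedback genes of the PERK arm, 9 genes of ER-associated degradation (ERAD) and 2 subunits of the translocon.

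Microglia from 3 month-old mice were profiled by RNA-Seq. *Bin1* encodes a membrane-bending adaptor protein that lies at an Alzheimer's disease risk locus. WT denotes *Bin1* wt/flox mice without Cre, Het denotes *Bin1* wt/flox::Cx3Cr1-Cre+ and Homo denotes *Bin1* flox/flox::Cx3Cr1-Cre+, so every group carried at least one floxed allele. Cre was expressed from the *Cx3cr1* locus, which is active in microglia and in some other myeloid cells. Each comparison with WT therefore also sets mice with Cre against mice without it. Loss of *Bin1* and the presence of Cre cannot be told apart in these comparisons. The male groups held 5 WT, 6 Het and 5 Homo libraries and the female groups 4 WT, 5 Het and 5 Homo libraries, each named by a mouse number. The study's methods describe sorting from adult brain and the labels give the age of 3 months, although the growth protocol among the labels is one for neonatal glial cultures.

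Relative depth, read from the steps between low FPKM values, ranged from 0.669 to 1.41 of the typical library. *Bin1* averaged 258.3 ± 21.4 FPKM in WT males, 119.7 ± 36.3 in Het males and 49.7 ± 6.82 in Homo males (mean ± SD, n = 5, 6 and 5). The female means were 253 ± 12.5, 134 ± 51.2 and 41.2 ± 1.90 FPKM (n = 4, 5 and 5). The libraries labelled Het-M-0199 and Het-F-0206 stood apart from their groups, with *Bin1* at 51.8 and 42.7 FPKM, and the second also had *Cx3cr1* at 13.9 FPKM. In the other libraries *Cx3cr1* measured 1829 to 2344 FPKM in WT and 610 to 1243 FPKM in Cre-positive mice. The 10 microglial marker genes summed to 17570 to 26259 FPKM over all 30 libraries. The libraries with low mouse numbers, Het-M-0100, Het-M-0108, Homo-M-0093, Homo-M-0097, Homo-M-0109 and WT-F-0122, are called early and the other 24 late. What the numbers stand for is not stated. No WT male was early.

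In the ER lumen, the HSP70 BiP (*Hspa5*) and the HSP90 GRP94 (*Hsp90b1*) hold unfolded chains, the lectins calnexin (*Canx*) and calreticulin (*Calr*) retain glycoproteins until they fold, and protein disulfide isomerases form their disulfide bonds. When unfolded protein accumulates, the sensors IRE1 (*Ern1*), PERK (*Eif2ak3*) and ATF6 (*Atf6*) start the unfolded protein response (UPR). IRE1 splices the *Xbp1* mRNA, PERK slows translation and favours that of ATF4, and cleaved ATF6 moves to the nucleus. The targets include chaperones, ERAD genes and, under prolonged stress, CHOP (*Ddit3*). A separate program, the heat shock response, induces cytosolic chaperones. HSC70 (*Hspa8*) and HSP90 beta (*Hsp90ab1*) are cytosolic chaperones, and the study describes HSC70 as constitutively expressed. Whether the ER machinery moved with the cytosolic one is the question the comparison addresses.

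The ER stress response element (ERSE), CCAAT and CCACG separated by 9 bases, is bound by NF-Y and by ATF6 and is the best known promoter element of ER chaperone genes. It is shown here as a sequence feature that the choice of members did not use. An exact match on either strand was found in 8 of the 29 members with an entry in the RefSeq promoter table (GRCm38.p6, 250 bases before to 50 bases after each start site), against 0.119% of all 32851 promoter windows (39 windows) and 0 of 18 cytosolic chaperones with an entry. *Manf*, *Hyou1*, *Atf6*, *Derl1*, *Ppp1r15b* and *Sec61a1* had no entry, nor did the cytosolic *Hspa8*, *Hsp90aa1*, *Hsp90ab1* and *St13*. The sites follow in the orientation of the element, with 5 flanking bases on each side and the matched bases in capitals.
Hspa5, chr2:34772020-34772048, plus-strand gene: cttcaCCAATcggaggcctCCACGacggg
Hsp90b1, chr10:86705633-86705661, minus-strand gene: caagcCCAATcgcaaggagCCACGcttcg
Hsp90b1, chr10:86705528-86705556, opposite orientation: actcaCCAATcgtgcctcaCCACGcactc
Calr, chr8:84847070-84847098, opposite orientation: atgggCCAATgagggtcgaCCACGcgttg
Canx, chr11:50325795-50325823, minus-strand gene: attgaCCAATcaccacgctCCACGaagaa
Pdia6, chr12:17266486-17266514, plus-strand gene: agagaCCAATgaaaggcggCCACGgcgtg
Dnajc3, chr14:118937822-118937850, plus-strand gene: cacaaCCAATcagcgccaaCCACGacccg
Creld2, chr15:88819515-88819543, opposite orientation: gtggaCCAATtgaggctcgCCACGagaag
Syvn1, chr19:6046527-6046555, plus-strand gene: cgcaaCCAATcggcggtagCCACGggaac

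Of these 8, 7 encode folding factors and 1, *Syvn1*, encodes the ERAD ubiquitin ligase HRD1. All sites lay upstream of the RefSeq start, between positions -212 (*Hsp90b1*) and -26 (*Syvn1*). The 150 bases before the *Hspa5* start, at chr2:34771940-34772089 of GRCm38.p6 on the plus strand, are given because BiP is the standard readout of the UPR. Capitals mark its single exact ERSE, at positions -65 to -47. The GENCODE M21 gene span printed with the values begins further upstream, at 34771970, so the element lies inside that span.
Hspa5 upstream: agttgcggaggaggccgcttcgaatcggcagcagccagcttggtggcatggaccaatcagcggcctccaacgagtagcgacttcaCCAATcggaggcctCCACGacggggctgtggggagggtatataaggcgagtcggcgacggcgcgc
Shorter cores were less particular. ACGTG, a core bound by XBP1 and ATF6, was in 12 of the 29 members, in 6 of the 18 cytosolic chaperones and in 19.6% of all windows. TGATGNAA, the ATF4 composite core, was in *Herpud1* and *Trib3* and in 3.97% of all windows. A match describes these letters only, and both strands were searched for every motif.

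FPKM values are scaled to transcript length, so levels can be compared between genes. Microglia carried high levels of the folding machinery. Averaged over the 30 libraries, *Pdia3*, a disulfide isomerase working with the lectins, was highest at 481 FPKM, followed by *Calr* at 439.8, *Hspa5* at 427 and *Hsp90b1* at 349.9 FPKM. *Pdia6* at 223, *P4hb* at 211 and *Canx* at 207.1 FPKM came next. Among the regulators, *Xbp1* stood alone at 198.5 FPKM. *Atf4* averaged 55.8, *Ddit3* 22.6, *Eif2ak3* 14.3, *Atf6* 11.9 and *Ern1* 6.28 FPKM. *Trib3*, a target of ATF4 and CHOP, was close to background at 0.315 FPKM, with libraries from 0 to 1.51. The largest ERAD transcripts were *Herpud1* at 147 FPKM, which organises the degradation complex, and the mannosidase-like *Edem2* at 136.

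Members also differed in how steady they were. *Xbp1* had the smallest SD between libraries of a group, 0.0845 on the log2 scale, and *Trib3* the largest, 1.01. The median over the 35 members was 0.225, beside 0.330 over all genes tested. After *Trib3* came *Canx* (0.359), *Os9* (0.340), *Hyou1* (0.323), *Pdia4* (0.320) and *Hsp90b1* (0.305). Nearby entries in the order of levels, such as *Calr* and *Hspa5*, had overlapping libraries, at 317 to 522 and 261 to 522 FPKM.

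No member passed the test between Homo and WT males, either as higher or as lower (limma on log2(scaled FPKM + 0.1), Benjamini-Hochberg adjusted p below 0.05, 0 of 35). Of all genes tested 2.82% passed. At an unadjusted p below 0.05 there were 8 members, or 22.9%, near the background of 22.5% over all genes. The log2 fold change was negative for 29 of 35 members with a median of -0.18, while over all genes 46.2% were negative and the median was 0.03. Values of the 15 folding factors leaned lowest, with a median of -0.26 and 13 of 15 negative, and those of the 9 ERAD genes were all negative with a median of -0.14. The 6 sensors and transcription factors had a median of -0.04.

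*Hspa5* (chr2:34771970-34777547, GRCm38) measured 439.8, 468, 418, 455 and 355 FPKM in the 5 WT males and 326, 410.2, 344, 379.5 and 426 FPKM in the 5 Homo males. The groups overlapped, and only the early Homo-M-0093 and Homo-M-0109 lay below the lowest WT male. The means were 427 ± 44.5 and 377 ± 42.6 FPKM (SD, n = 5 each; two-sided exact permutation test, p = 0.103, smallest possible 0.00794). The fitted log2 fold change was -0.26 (95% CI -0.55 to 0.03, adjusted p = 0.267).

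*Hsp90b1* (chr10:86690209-86705509) measured 397, 424, 415, 311 and 382 FPKM in WT males and 248.9, 291, 227.7, 395 and 327 FPKM in Homo males. The 3 low Homo libraries were the early ones, whereas the late ones, Homo-M-0189 and Homo-M-0190, lay within the WT range. The means were 386 ± 44.9 and 298 ± 66.4 FPKM (SD, n = 5 each; exact permutation p = 0.0476, one of 28 such tests on 7 members in 4 comparisons). The log2 fold change of -0.47 (95% CI -0.85 to -0.10) had an adjusted p of 0.126 in limma. *Calr* (chr8:84841850-84846934) gave 442 ± 12.6 FPKM in WT and 410.3 ± 52.9 in Homo males (SD, n = 5 each, exact permutation p = 0.286).

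The 3 members with the smallest p were *Pdia6*, *Creld2* and *Vcp*. *Pdia6*, a disulfide isomerase, measured 245, 248, 218, 230.4 and 219.7 FPKM in WT males and 162, 191, 182, 216 and 207.7 FPKM in Homo males. As deposited, all 5 Homo libraries were below all WT libraries, the only member for which this held (1.37% of all genes did so). After scaling between libraries the groups overlapped and 0 members were separate (1.75% of all genes). Its log2 fold change was -0.36 (95% CI -0.60 to -0.12, adjusted p = 0.0769 in limma).

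*Creld2*, a secreted ER stress-inducible protein, measured 53.1, 43.9, 39.9, 37.7 and 50.6 FPKM in WT and 27.7, 41.9, 33.9, 34.3 and 31.5 FPKM in Homo males. A single Homo library, Homo-M-0097, reached into the WT range. The log2 fold change was -0.49 (95% CI -0.82 to -0.16, adjusted p = 0.0792 in limma). *Vcp*, the ATPase that pulls ERAD substrates out of the membrane, measured 123, 129, 124, 90.9 and 109.6 FPKM in WT and 85.0, 89.4, 77.0, 103 and 100.3 FPKM in Homo males, with a log2 fold change of -0.42 (95% CI -0.73 to -0.12, adjusted p = 0.0997). WT-M-0202 was the low WT library and overlapped Homo. Without Homo-M-0189, 5 members passed, among them *Hsp90b1*, *Pdia6* and *Vcp*, where 8.16% of all genes did. Without WT-M-0202 the 2 that passed were *Creld2* and *Vcp*, where 5.82% of all genes did.

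The regulators had values near those of WT. *Xbp1* (chr11:5520659-5525893) measured 204, 185, 181, 201.03 and 185 FPKM in WT males and 211, 204.6, 205.6, 191.5 and 199.1 FPKM in Homo males, and the groups overlapped (log2 fold change 0.00 after scaling, 95% CI -0.14 to 0.14). Gene-level FPKM cannot show its splicing. *Atf4* (chr15:80255184-80257541) averaged 57.3 ± 7.35 and 60.3 ± 5.96 FPKM, and *Ddit3* (chr10:127290774-127296288) 23.5 ± 4.61 and 23.5 ± 3.63 FPKM (SD, n = 5 each, exact permutation p = 0.492 and 0.976). *Herpud1* (chr8:94386438-94395377) averaged 138 ± 5.84 and 139 ± 16 FPKM (SD, n = 5 each, exact permutation p = 0.944). The 95% interval of the log2 fold change was -0.21 to 0.20 for *Atf4*, -0.32 to 0.16 for *Ddit3* and -0.34 to 0.18 for *Herpud1*. *Sec61b*, a translocon subunit, was the member with the highest value of opposite sign at an unadjusted p below 0.05, at 0.34 (adjusted p = 0.165).

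**Figure D1:**
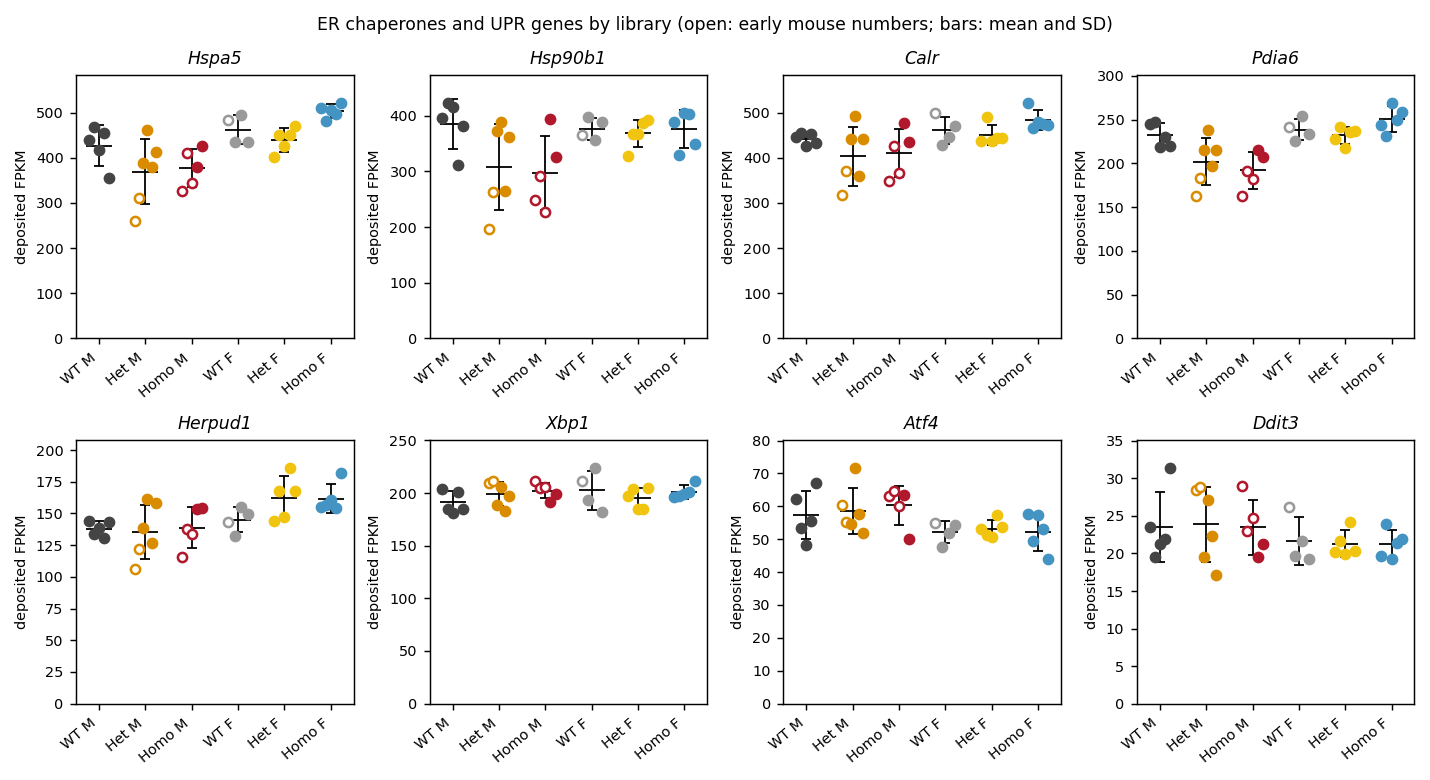
Deposited FPKM of 8 members (vertical axes, from 0) in each of the 30 libraries by group; M is male and F female, open points are early mouse numbers, and bars give the mean and SD. Hsp90b1 is low in the open male points (197.1 to 291 FPKM), while Xbp1 stays between 181 and 224 FPKM throughout.

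Het males were compared with the same WT libraries. Here 0 of 35 members passed (background 0.172%), and 8 members, or 22.9%, had an unadjusted p below 0.05 beside 14.2% of all genes. The median log2 fold change was -0.12, with 31 of 35 negative beside 48.1% of all genes. The 3 members with the smallest p were *Creld2*, *Pdia6* and *Hsp90b1*. *Creld2* ranged from 24.3 through a median of 33.7 to 47.8 FPKM in the 6 Het males (log2 fold change -0.49, 95% CI -0.80 to -0.17, adjusted p = 0.192). *Pdia6* ranged from 162 through 206.01 to 238.3 FPKM (-0.28, adjusted p = 0.293), and *Hsp90b1* from 197.1 through 313 to 389.6 FPKM (-0.43, adjusted p = 0.301).

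For *Creld2* and *Hsp90b1* the lowest Het libraries were the early Het-M-0100 and Het-M-0108 together with the late Het-M-0203, and the other 3 lay inside or near the WT range. *Hspa5* ranged from 261 through 384 to 461 FPKM (mean 369 ± 72.0, SD, n = 6, exact permutation p = 0.147, smallest possible 0.00433). *Xbp1* averaged 199.3 ± 11.5 FPKM and *Ddit3* 23.9 ± 4.97 FPKM (n = 6 each, exact permutation p = 0.229 and 0.892). Without the doubted libraries Het-M-0199 and Het-F-0206 the median was also negative, at -0.18, and the number that passed was also 0 (0.201% of all genes).

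In females no member passed either. Against WT, 0 of 35 members passed in Homo (background 0.071%) and 0 of 35 in Het (0.136%), and no member had an unadjusted p below 0.05 in either comparison, where 3.49% and 3.95% of all genes did. The median log2 fold changes were 0.00 and -0.01, with 16 and 19 of 35 negative beside 49.2% and 49.8% of all genes. *Hspa5* measured 485, 436, 496 and 434 FPKM in WT, 402, 451, 426, 449.9 and 470.2 FPKM in Het and 510.0, 482, 507, 498 and 522 FPKM in Homo females. All Homo libraries but Homo-F-0201 were above the highest WT library, and the mean of 504 ± 14.8 against 462 ± 32.2 FPKM gave p = 0.0635 (SD, n = 5 and 4, exact permutation test).

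*Herpud1* measured 143, 132, 155 and 149.8 FPKM in WT and 155, 157, 161, 154 and 182 FPKM in Homo females. The ranges met at the top of WT, and the means of 145 ± 9.83 and 162 ± 11.4 FPKM gave p = 0.0317 in the exact permutation test (n = 4 and 5), while limma gave a log2 fold change of 0.15 (95% CI -0.13 to 0.43). The smallest limma p in Homo females belonged to *Manf*, a secreted BiP cofactor, *Creld2* and *Edem2*, at log2 fold changes of 0.17, 0.21 and 0.14. In these 3, WT ran from 84.7 to 107.8, 38.5 to 42.3 and 127 to 147 FPKM, and Homo from 95.1 to 119, 39.7 to 54.1 and 141 to 162 FPKM, so the groups overlapped. In Het females the smallest p values belonged to *Ern1* (0.22), *Herpud1* (0.15) and *Eif2ak3* (0.19), whose groups overlapped too, at 4.86 to 7.03 against 5.84 to 7.56, 132 to 155 against 144 to 186 and 12.4 to 16.1 against 14.2 to 17.8 FPKM.

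**Figure D2:**
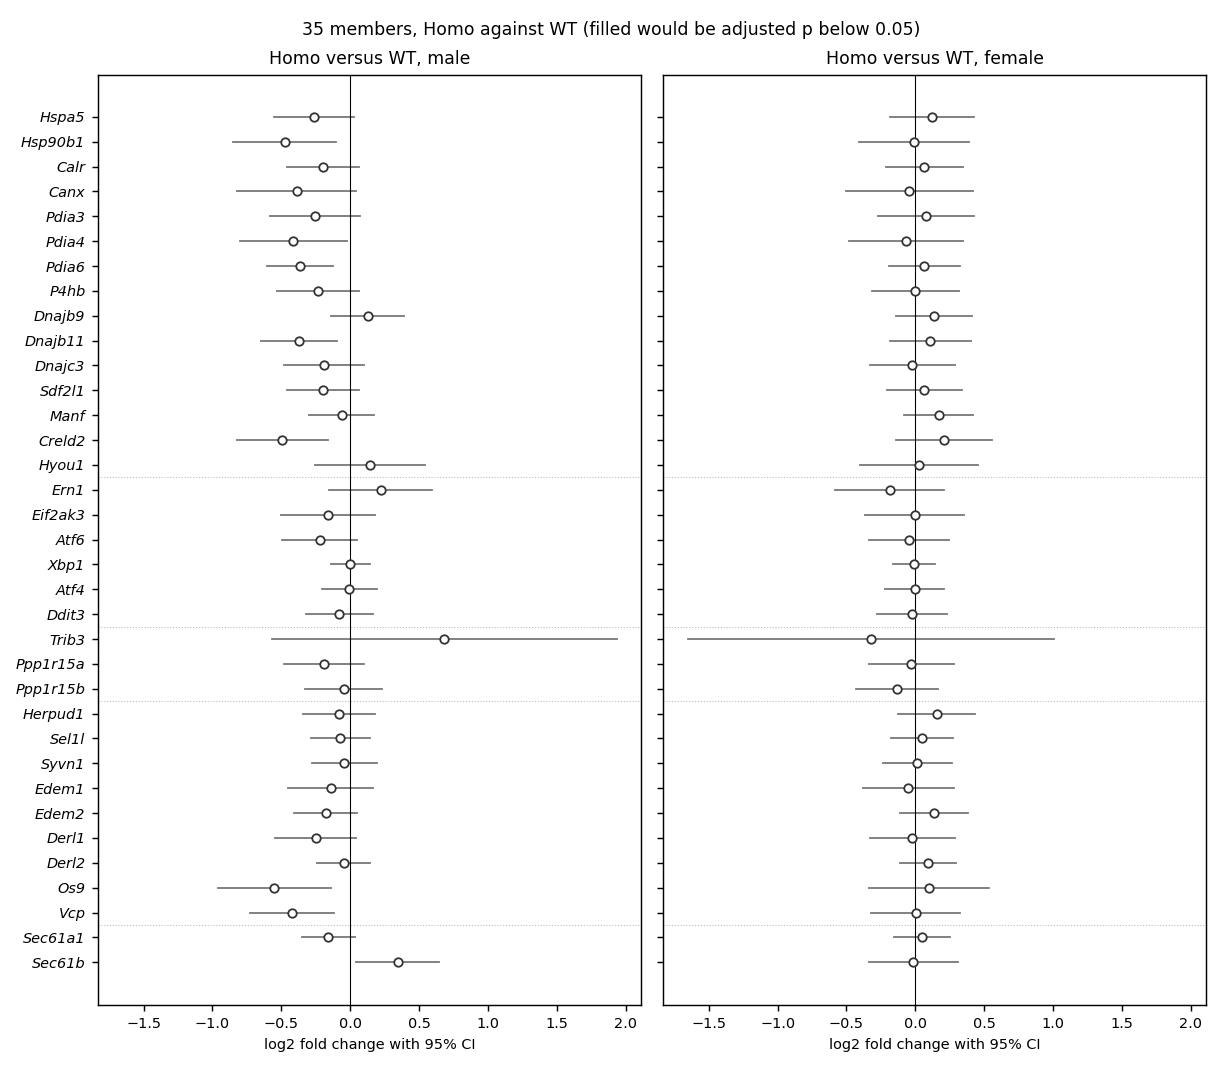
Log2 fold change of Homo against WT with its 95% confidence interval (horizontal axes) for the 35 members in males (left) and females (right), ordered by role with dotted lines between roles. No point is filled because none passed; 29 of 35 male values and 16 of 35 female values are negative.

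Sex differences in the response were tested as an interaction. For Homo against WT, 0 of 35 members passed (0 of 16897 genes did, 0%), and 4 members, *Creld2*, *Pdia6*, *Dnajb11* and *Os9*, had an unadjusted p below 0.05, or 11.4% beside 9.29% of all genes (limma). The male fold change was below the female one by 0.70 for *Creld2* and by 0.65 for *Os9*, a lectin of ERAD, on the log2 scale (adjusted p = 0.497 and 0.528). For Het against WT, 0 of 35 passed and none had an unadjusted p below 0.05 (4.53% of all genes). Homo and Het did not separate within a sex either. In males 0 of 35 members passed and none had an unadjusted p below 0.05 (0% and 3.85% of all genes), with a median of -0.003, and in females 0 passed and only *Ern1* had an unadjusted p below 0.05 (0.0118% and 2.06% of all genes), at -0.41 (95% CI -0.78 to -0.03).

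More members passed between early and late mouse numbers than between genotypes. Within Cre-positive males, with genotype as a term, 18 of 35 members were lower in the 5 early than in the 6 late libraries and 0 were higher. Of all 17326 genes tested in these libraries 15.9% passed and 6.9% were lower. The median over the members was -0.40, beside 0.10 over all genes. The 18 comprised 14 of the 15 folding factors, all but *Creld2*, and the ERAD genes *Herpud1*, *Derl1*, *Os9* and *Vcp*. None of the 6 sensors and transcription factors passed, with log2 fold changes from -0.33 to 0.22.

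*Hspa5* measured 261 and 310.4 FPKM in the early Het males and 326, 410.2 and 344 FPKM in the early Homo males, and 379.5 to 461 FPKM (median 399.9) in the 6 late libraries. Only Homo-M-0097 reached the late range. The log2 fold change was -0.51 (95% CI -0.80 to -0.22, adjusted p = 0.0268 in limma). *Pdia6* did not overlap, at 162 to 191 FPKM in the early and 197.03 to 238.3 FPKM in the late libraries (-0.45, 95% CI -0.68 to -0.21, adjusted p = 0.0227). *Canx* ranged from 111 to 189.7 FPKM in the early and from 140.4 to 253 FPKM in the late libraries (-0.76, adjusted p = 0.0250).

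*Pdia4* (-0.76), *Os9* (-0.71), *Hsp90b1* (-0.70), *Hyou1* (-0.67) and *Pdia3* (-0.66) had differences nearly as large, with adjusted p values of 0.0170, 0.0272, 0.0194, 0.0244 and 0.0171 in limma. *Hyou1* is an exchange factor of BiP. *Calr* and *Herpud1* fell by less, at -0.46 and -0.47 (adjusted p = 0.0394 and 0.0238). *Xbp1* was 204.6 to 211 FPKM in the early and 183 to 206.03 FPKM in the late libraries as deposited (-0.06 after scaling, adjusted p = 0.695), and *Ddit3* 23.0 to 29.0 and 17.1 to 27.2 FPKM (0.22, adjusted p = 0.196).

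The count rested on single libraries. Leaving out Het-M-0100 or Homo-M-0189 left 0 of 35 members past the test, and leaving out Het-M-0203 gave 22, with medians of -0.30, -0.43 and -0.46, where 1, 1 and 4993 of all genes passed. Without Homo-M-0093 the count was 7, without Het-M-0210 it was 9 and without Het-M-0108 it was 10, where 5.59%, 6.97% and 8.16% of all genes passed. Within Het males alone (2 against 4) and within Homo males alone (3 against 2) the medians were -0.50 and -0.34 with 0 members past the test. The early WT-F-0122 was not low, with *Hspa5* at 485 and *Hsp90b1* at 365 FPKM. All males in the early-late comparison were Cre-positive. Because no WT male was early, mouse number and Cre cannot be told apart where early males are set against WT males.

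The cytosolic chaperones moved in this comparison too, with 9 of 22 lower and 1 higher and a median of -0.32 (15.9% of all genes passed and 6.9% were lower, as above). The largest differences were those of *Dnajc7* (0.88), a TPR co-chaperone, *St13* (-0.69), *Hspa4* (-0.55) and *Ahsa1* (-0.54), and *Hsp90ab1* and *Hsp90aa1* were lower as well (-0.47 and -0.49).

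Some markers of other cells also differed in these libraries. Of the neutrophil markers *S100a8* and *S100a9* were higher in the early libraries, as were *Aldoc* (1.99) and *Gja1* (1.95) of the astrocyte markers. So were *Mbp* of oligodendrocytes (1.30), *Pf4* of border macrophages (0.88) and *Ccr2* of monocytes (0.65), while the endothelial *Pecam1* was lower (-0.62). The other listed markers of these cell types did not pass, where 15.9% of all genes did. *Pecam1* ran from 6.64 to 14.9 FPKM over the 30 libraries, whereas *Cldn5* was at 0 in 27 of them and *Ly6c1* in 29. The marker sums were 0.0923 to 189.5 FPKM in the early and 0 to 13.04 FPKM in the late libraries for neutrophils, 90.4 to 128.5 and 65.7 to 102 FPKM for astrocytes, and 17.2 to 25.6 and 11.1 to 15.7 FPKM for border macrophages. The astrocyte sum came mostly from *Slc1a3*, at 63.9 to 112 FPKM over all libraries, which did not pass. The medians of *Gfap* and *Aqp4* were 0.231 and 0.0932 FPKM. Their part in the member levels was not tested.

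**Figure D3:**
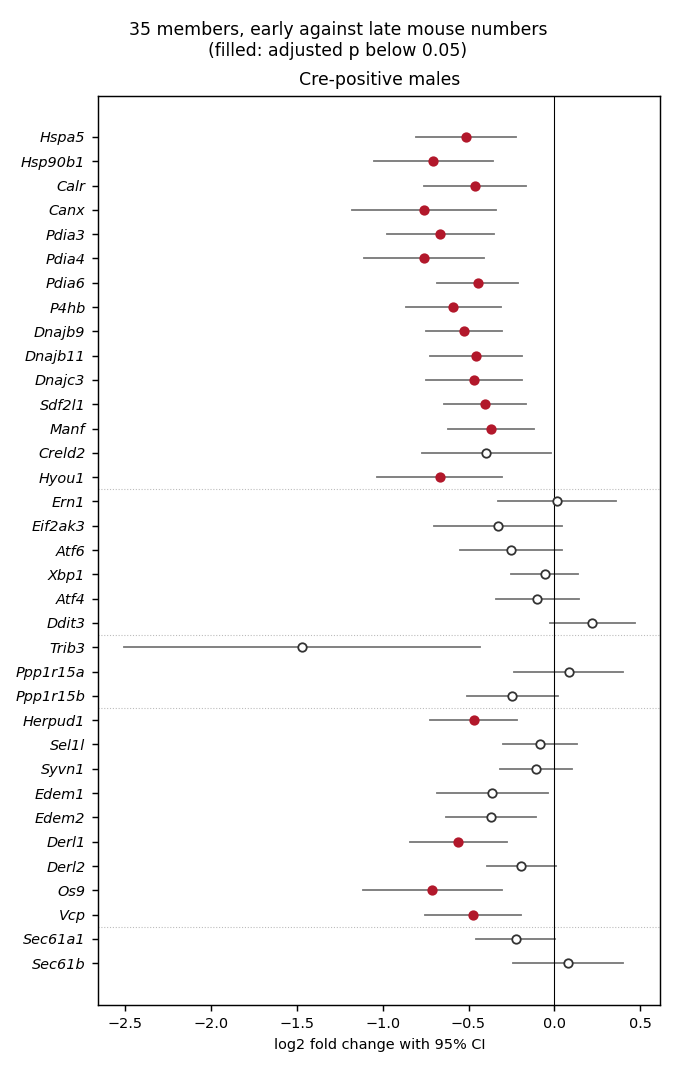
Log2 fold change of early against late mouse numbers in Cre-positive males with its 95% confidence interval (horizontal axis) for the 35 members, ordered by role with dotted lines between roles; filled points passed the test. The 18 filled points all lie below 0, and they are folding factors and ERAD genes.

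The low libraries shared a feature of the RNA. For an index of long noncoding RNA, log2 levels were averaged over 678 lncRNA genes and over 10266 protein-coding genes, and the second mean was taken from the first. It was -1.76 to -1.35 in 6 libraries, the 5 early Cre-positive males and the late Het-M-0203, and -2.48 to -2.02 in the other 24. The mean member level of these 6, relative to all libraries, was -0.55 to -0.09 on the log2 scale, and that of the others -0.12 to 0.27. The 5 lowest of the 30 libraries by this mean were Het-M-0100, Homo-M-0093, Homo-M-0109, Het-M-0108 and Het-M-0203. Their relative depth was low as well, at 0.669 to 0.920 in the 6 against 0.855 to 1.41 in the others. Index and mouse numbers disagreed only in the late Het-M-0203 (member mean -0.26) and the early WT-F-0122 (0.06). So few libraries cannot separate the part of the index or depth in the member levels from that of the mouse numbers. With the index as a term the number of members past the early-late test was 0 and the median -0.01.

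**Figure D4:**
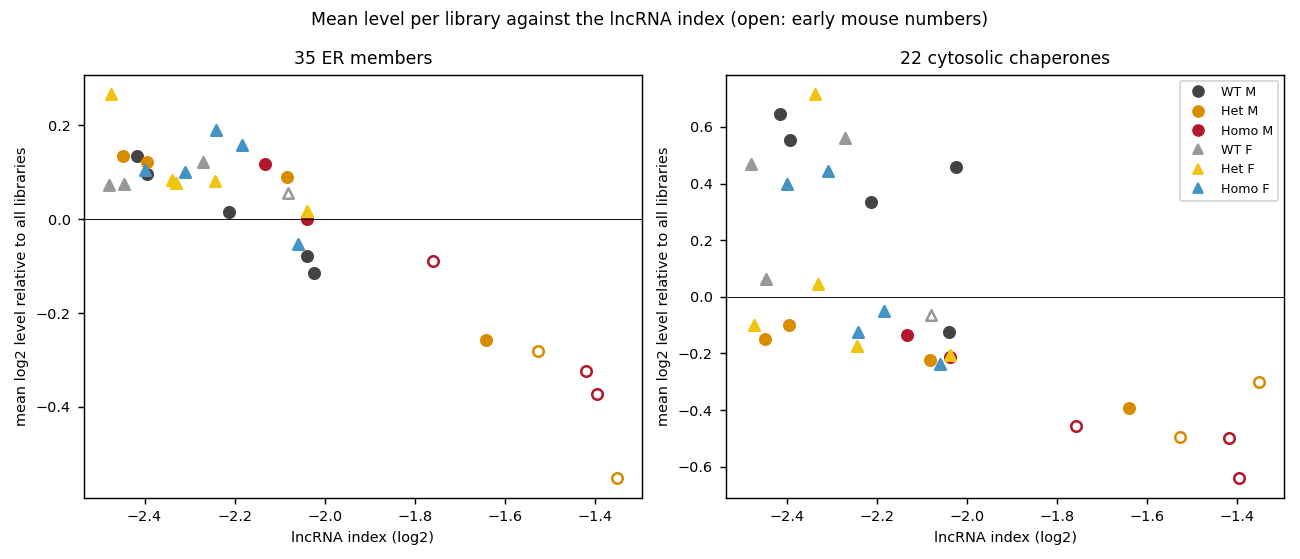
Mean log2 level per library relative to all 30 libraries (vertical axes) of the 35 ER members (left) and 22 cytosolic chaperones (right) against the lncRNA index in log2 units (horizontal axis); circles are males, triangles females and open points early mouse numbers. ER levels of the 6 libraries with an index from -1.76 to -1.35 run from -0.55 to -0.09, whereas cytosolic levels also spread among the libraries with a low index.

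Setting the early libraries aside changed the male comparison of genotypes. With late libraries only (2 Homo, 4 Het and 5 WT males), the median member log2 fold change was 0.03 for Homo and -0.03 for Het. In both 0 of 35 were past the test, where only 0.0543% and 0.0724% of all genes passed. *Hspa5* then stood at -0.08, *Hsp90b1* at -0.09, *Calr* at 0.04 and *Pdia6* at -0.13 in Homo males. *Creld2* was the member of these whose value moved least, at -0.44, also short of the threshold. With the lncRNA index as a term in the fit of all libraries the Homo median was 0.06.

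B and plasma cells are rich in ER chaperones, and of their markers *Mzb1* was at 0 in 29 of 30 libraries and *Jchain* in 18, with highest values of 0.112 and 0.185 FPKM. The sum of that list, 262 to 356 FPKM, came from *Ighm* and *Cd79b*. The 8 neutrophil markers summed to 43.9 to 349 FPKM in WT males, 0 to 189.5 FPKM in Het males and 0 to 80.8 FPKM in Homo males. Of these markers 4 were lower in Homo males, where 2.82% of all genes passed. Border macrophage markers summed to 15.5 to 43.6 FPKM in WT males and 11.1 to 25.6 FPKM in Homo males. Of these 6 genes 0 passed, and 5 had an unadjusted p below 0.05 in limma, beside 22.5% of all genes. The 10 microglial markers summed to 17570 to 23677 FPKM in the early and 20181 to 26053 FPKM in the late Cre-positive males. Of these markers 2 were lower in the early libraries, where 6.9% of all genes were lower. The part of these cells in the ER result was not tested. In bulk RNA, fewer cells of a type and less RNA per cell cannot be told apart.

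Cytosolic chaperones passed where ER members did not. In Homo against WT males, 11 of 22 passed, all lower, with a median of -0.54 (2.82% of all genes passed). The study had already reported *Dnaja1*, *Dnajb1*, *Hsp90aa1*, *Hsp90ab1* and *Hspa8* as repressed in these males. The list was chosen with that known, so its count is a description and not independent support. *Hsp90ab1* measured 226, 297, 259.9, 154 and 270.4 FPKM in WT males and 88.7, 97.4, 109.7, 133 and 107 FPKM in Homo males, without overlap (-1.23, 95% CI -1.65 to -0.82, adjusted p = 0.00145 in limma). *Hspa8* measured 516, 628, 629.6, 459.7 and 583 FPKM in WT and 286, 358, 295, 322 and 322 FPKM in Homo males, again without overlap (-0.91, 95% CI -1.27 to -0.55, adjusted p = 0.00750). The HSP90 alpha gene *Hsp90aa1* was lower by the same test (-0.85, adjusted p = 0.0264). The count was 1 in Het males (0.172% of all genes) and 0 in either female comparison (0.071% and 0.136%). With late libraries only it was 0 in Homo males with a median of -0.26, where 9 of 16565 genes passed. Leaving out one library also lowered the Homo male count, to 3 without Homo-M-0093, 4 without WT-M-0177, 5 without Homo-M-0109 or WT-M-0178, and 6 without Homo-M-0097, WT-M-0176 or WT-M-0258. The Het male count was 5 without WT-M-0202 and 2 without Het-M-0197 (0.367% of all genes in each case). It was 0 without Het-M-0100, Het-M-0108, Het-M-0203 or any of the other 4 WT males (0.071% to 0.362% of all genes). Each member that has near-identical processed copies in the genome, HSP70 and HSP90 genes included, can share reads with them.

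The log2 ratio of a cytosolic chaperone to its ER counterpart within each library, which no scaling between libraries can alter, is given as a description. The pairs were chosen after the fits had shown the cytosolic genes lower and the ER genes not, so no test is given. *Hspa8* to *Hspa5* averaged 0.40 ± 0.28 in WT males (0.01 to 0.72) and -0.25 ± 0.09 in Homo males (-0.40 to -0.19), without overlap (SD, n = 5 each). *Hsp90ab1* to *Hsp90b1* averaged -0.70 ± 0.22 in WT and -1.46 ± 0.23 in Homo males, again without overlap (SD, n = 5 each).

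The differences from WT were -0.64 and -0.76 in Homo males, -0.39 and -0.49 in Het males and -0.25 to -0.34 in the female groups. With late libraries only, they were -0.72 and -0.89 in Homo males (2 libraries) and -0.47 and -0.57 in Het males (4 libraries).

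**Figure D5:**
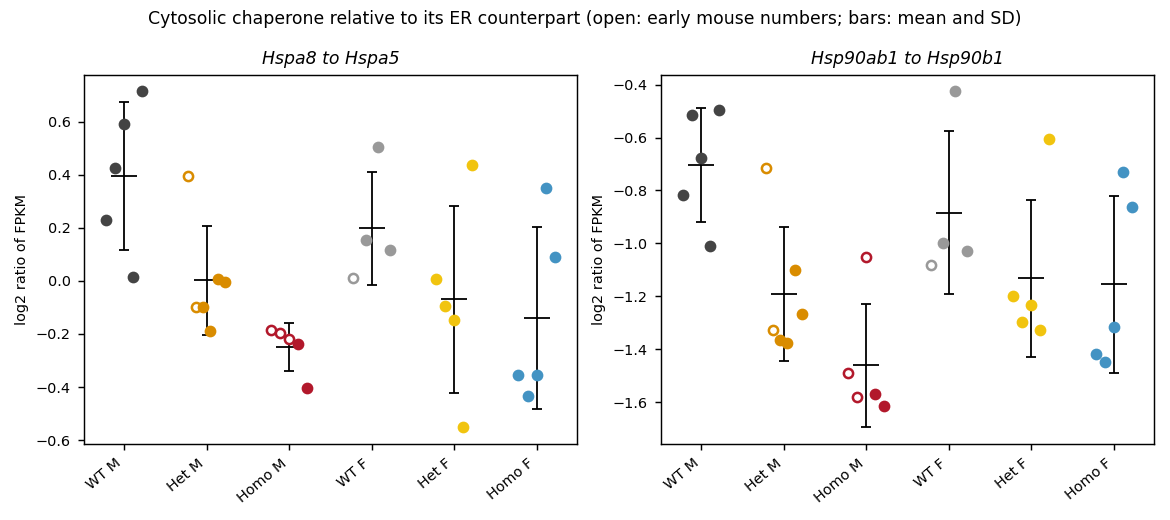
Log2 ratio of deposited FPKM of a cytosolic chaperone to its ER counterpart (vertical axes) in each library by group; open points are early mouse numbers and bars give the mean and SD. In Homo males the Hspa8 to Hspa5 ratio runs from -0.40 to -0.19, below the WT males at 0.01 to 0.72, in early and late libraries alike.

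For 3 pairs of chaperones the relation across libraries was computed. After group means were removed, *Hspa5* and *Hsp90b1* gave r = 0.81 and rho = 0.70 over the 30 libraries (permutation p = 0.0004 and 0.0022, adjusted p = 0.0007 and 0.0022 over 3 pairs). *Hsp90b1* and *Hsp90ab1* gave r = 0.65 and rho = 0.71 (permutation p = 9e-05 and 0.0002, adjusted p = 0.0003 and 0.0007). *Hspa5* and *Hspa8* gave r = 0.50 and rho = 0.56 (permutation p = 0.0016 and 0.0021, adjusted p = 0.0016 and 0.0022). Without the 2 farthest libraries r was 0.69, 0.63 and 0.49.

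Within the 24 late libraries the HSP90 pair gave r = 0.63 (permutation p = 0.0021, adjusted p = 0.0063), whereas the other pairs gave r = 0.49 (p = 0.0721) for *Hspa5* with *Hsp90b1* and r = 0.32 (p = 0.109) for *Hspa5* with *Hspa8*. For these 2 pairs the relation over all libraries did not hold among the late ones by this test, and the 6 early libraries were too few across groups for a value of their own. All pairs share the library, its depth and its lncRNA index.

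The rest of the ER and stress pathways showed few calls between Homo and WT males, where 2.82% of all genes passed. Lists of 14 to 25 genes would hold few calls at that share too. Of 23 other folding and glycan quality control genes and 20 other ERAD genes, 0 passed in each (7 and 5 at an unadjusted p below 0.05 in limma, or 30.4% and 25%, near the 22.5% of all genes), with medians of -0.15 and -0.11. Of 22 other translocon and oligosaccharyltransferase genes, only *Ssr2*, a subunit of the translocon-associated protein complex, was lower (-0.45, adjusted p = 0.0264). Of 14 other sensor and activation genes, only *Mbtps2*, the site-2 protease that cleaves ATF6, was higher (0.47, adjusted p = 0.0482). Of 25 ATF4 and integrated stress response genes, *Ddit4* (-2.48, adjusted p = 0.0105) and *Cebpb* (-0.59, adjusted p = 0.0174) were lower.

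*Ddit4*, which restrains mTOR signalling, and *Cebpb*, a partner of CHOP, are also induced by glucocorticoids and inflammation. With late libraries only, 0 genes of these 5 lists passed, where 0.0543% of all genes did. Between early and late Cre-positive males 10 of 23, 4 of 20, 11 of 22, 2 of 14 and 8 of 25 genes of the folding, ERAD, translocon, sensor and ATF4 lists were lower and 1 of each was higher, beside 6.9% of all genes lower. In the folding, translocon, sensor and ATF4 lists the lower gene with the largest difference was, in that order, *Sil1* (-0.84), a BiP exchange factor, *Dad1* (-0.70) of the oligosaccharyltransferase, *Tmbim6* (-0.69), an ER membrane protein that dampens IRE1, and *Ddit4* (-0.95).

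Of the members with an ERSE, 0 of 8 were past the test in each comparison of genotypes. In Homo against WT males all 8 had negative values with a median of -0.31, beside -0.14 for the 21 members whose promoter window held none. In the early-late comparison 6 of 8 and 9 of 21 were lower, beside 6.9% of all genes, with medians of -0.47 and -0.37. *Syvn1* and *Creld2* were the ERSE members that did not pass there, at -0.11 and -0.40. Most ERSE members are folding factors, and folding factors without an exact match, such as *Pdia3* and *Pdia4*, were lower there too. The part of the element was not tested.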

How the data were processed

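Expression of microglia in 30 libraries was read from 1 table, deposited by the authors as FPKM per gene and library. The submitters' processing notes name RSEM and mm10, with no versions. The table has 6 columns that match no sample listed here, and they were not used. The study's methods report 6 samples removed, unevenly over the groups, for few uniquely mapped read pairs and high duplication. Whether these columns are those samples is not stated. Transcript counts were not analysed here, so depth is known only as a relative value from the steps between low FPKM values.

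FPKM were divided by a median-of-ratios factor and log2(value + 0.1) was fitted with limma 3.58.1 (R 4.3.3, trended variance) over all 6 groups, for genes with a mean of at least 0.1 FPKM, with Benjamini-Hochberg adjustment over all of them. Differentially expressed genes (DEGs) passed an adjusted p of 0.05 and a fold change above 1.5. The call used in the text is the adjusted p alone. Fold changes are on the log2(value + 0.1) scale, which understates changes of low genes. Exact and permutation tests (100000 shuffles within groups for correlations) used scipy 1.17.1 in Python 3.11.15 on deposited FPKM or, for correlations, scaled log2 values. Mouse numbers are unique, so libraries are not paired, and nothing states more about their independence than the mouse number.

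The members and lists were chosen with earlier results of these data known. Values per library are given for 7 members named by role and for the 3 with the smallest p in each comparison with WT. From the other lists, up to 4 genes that passed, with the largest changes, are named. The script was tested on simulated data. Alternatives covered pseudocount, filter, scaling, weights, mouse number range, doubted libraries and leaving out each library.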

Additional observations from a re-analysis of the deposited data

Results flagged for a closer look

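Over 102 groups of 4 to 6 libraries (17 genes in 6 groups), 6 held a library far from the rest by Dixon's criterion, and chance alone picks about 1 in 20. *Calr* was high in the library labelled Het-F-0206, at 489 FPKM against 436 to 444 in the other 4, and in Homo-F-0193, at 522 FPKM against 467 to 480.1. *Herpud1* was high in Homo-F-0238, at 182 FPKM against 154 to 161. *Edem2* was low in WT-M-0178, at 119 FPKM against 130.3 to 134. Of the cytosolic chaperones, *Hspa8* was high in WT-F-0200, at 703 FPKM against 471 to 489, and *Hsp90ab1* in Het-F-0257, at 257.6 FPKM against 143 to 156.

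*Hspa5* values lay on opposite sides of WT in the sexes, although neither change passed its test. Every Homo male was below the WT male mean and every Homo female above the WT female mean after scaling. The mean differences were -0.26 and 0.12, and the male fold change was below the female one by 0.39 on the log2 scale (-0.39, limma interaction, adjusted p = 0.563), so the difference did not pass its test. With late libraries only, the male value was -0.08.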

How the results depend on the processing

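The count of 0 members was the same under every alternative for Het males, both female comparisons, Homo against Het and the interactions. In Homo against WT males it was 1 with array weights (*Pdia6*) and 0 to 5 when each library was left out, where 0.529% to 8.16% of all genes passed. The median of -0.18 moved to 0.011 with mouse number range as a covariate, 0.025 with late libraries only and 0.061 with the lncRNA index as a covariate (added after seeing the data), and leaving out each library gave -0.22 to -0.12. The Homo interaction median of -0.20 moved to 0.032, 0.00070 and 0.00997 under the same 3. Without scaling, the median of all genes was 0.11 in Homo males and 0.23 between early and late males, and the member medians were -0.10 and -0.24.

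The 18 members between early and late males (alternatives chosen after seeing the data) became 7 with all genes above 0 tested, 11 without scaling, 7 with a fold change above 1.5, 0 with the lncRNA index (median -0.0054, *Vcp* reversed at 0.051), 0 within Het males, 0 within Homo males and 0 to 22 leaving out each library (0.00574% to 28.9% of all genes). The 11 cytosolic chaperones in Homo males became 6 with all genes above 0 (274 of 27137 genes passed), 6 with only the groups compared, 1 with the number range, 2 with the lncRNA index, 0 with late libraries only (9 of 16565 genes) and 3 to 13 leaving out each library (0.529% to 8.16% of all genes). For the other settings no share of all genes is given, so these falls cannot be read as particular to the listed genes. The cause was not tested. The uncalled fold changes changed sign in 270 of 3024 alternative values of single members.

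With 4 to 6 libraries a group, small shifts in members could not be resolved, and *Trib3* was near 0 FPKM in some libraries.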
